A study of Homo sapiens with 12 samples.

Results

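Human retinal pigment epithelium (RPE) cells of the established line ARPE-19 were compared between a line labelled GSTA4 and cells labelled WT. The comparison used 6 of the 12 RNA-seq libraries of the series, 3 of each kind, and tested 15179 of 40591 named genes. The GSTA4 line was collected after 4 days of expression of glutathione S-transferase alpha 4 as an open reading frame (ORF). A line labelled GFP, treated in the same way with an ORF whose name is that of green fluorescent protein, gave 3 libraries and served to separate what a control ORF line also showed against WT. A line labelled OSK, read as POU5F1, SOX2 and KLF4, gave the last 3 libraries, which entered the estimate of the spread. The labels name no vector, no number of clones and no treatment of the WT cells, and whether a group's libraries came from separate cultures is not stated. The p-values therefore measure the spread between these libraries, and a difference between lines holds the ORF together with whatever else differs between them.

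GSTA4 is a cytosolic enzyme that joins glutathione to reactive aldehydes made when membrane lipids are oxidised, above all 4-hydroxynonenal (4-HNE), and so helps to clear them. RPE cells carry a heavy load of such products, since they live in bright light and digest the lipid-rich outer segments of photoreceptors. Other aldehydes are oxidised by aldehyde dehydrogenases or reduced by aldo-keto reductases, and peroxides are removed by catalase, peroxiredoxins and glutathione peroxidases.

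Total counts ran from 13344775 to 17045454 over the 6 libraries compared, and from 12630675 over all 12. WT replicate 1 stood apart from the other WT libraries, with a chi-square per gene of 15.0 and 17.5 against them, where the 10 other pairs within groups gave 2.54 to 6.98. GFP replicate 1 had reads on 27349 named genes, where the other 11 libraries had 19488 to 22073. Results that turn on these libraries are given with and without them. Of 13 RPE markers, none was at or under the floor of 3 reads in all WT and GSTA4 libraries. The floor held for 4 of 8 fibroblast markers, COL3A1, DCN, LUM and TCF21, for 3 of 7 endothelial markers, CDH5, TIE1 and CLDN5, and for 5 of 7 immune markers, among them PTPRC, CD14, CD3E and TYROBP. The summed fibroblast markers, nearly all PDGFRB, had 634 to 704 CPM (reads relative to the library's total, corrected by TMM) in WT, 633 to 701 in GFP and 528 to 553 in GSTA4. The endothelial sum, mostly KDR, was 72.8 to 97.5, 59.6 to 75.3 and 39.2 to 43.2 CPM, and the immune sum, mostly CSF1R, 3.3 to 11.5, 16.2 to 18.9 and 0.45 to 0.826 CPM. PDGFRB, FAP, KDR and CSF1R were called lower in GSTA4, at log2 fold changes of -0.27, -2.37, -1.09 and -4.05 against WT, and in GFP they were at 0.02, -0.7, -0.35 and 1.14. KDR did not stand for all endothelial markers, since the median of the 3 tested was 0.73 in GSTA4, with 0 called higher. Without WT replicate 1, 1 of the 3 was called higher and 1 lower. The part of these markers in the results was not tested. In bulk RNA, fewer cells of a type and less RNA per cell cannot be told apart.

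The labels were checked on the ORF itself. GSTA4 had 396, 420.5 and 431 CPM in the GSTA4 libraries and 4.42, 4.85 and 7.14 in the WT libraries. Every GSTA4 library was far above every WT library. The log2 fold change was 6.23 (SE 0.119 and adjusted p 1.02e-18) by edgeR's quasi-likelihood test with Benjamini-Hochberg adjustment, which gives all adjusted p-values here. The GFP libraries, with 7.83, 9.1 and 9.44 CPM, were also above WT, by 0.68 on the log2 scale (adjusted p 0.00355). The counts do not separate ORF reads from those of the endogenous gene.

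Against WT, 5864 of 15179 genes (38.6%) passed the threshold of an adjusted p of 0.05 in the GSTA4 line. Of these, 2987 were higher (19.7% of genes tested) and 2877 lower (19%), and the median size of their log2 fold changes was 0.50. Changes of at least 1 on that scale numbered 584 among the higher genes (3.85%) and 603 among the lower (3.97%). In 49% of all tested genes the 3 GSTA4 libraries did not overlap the 3 WT libraries. The GFP line differed from WT in 3369 genes (22.2%), 1666 higher (11%) and 1703 lower (11.2%), and the GSTA4 line differed from the GFP line in 4439 (29.2%), 2226 higher (14.7%) and 2213 lower (14.6%). Changes of at least 1 were 387 higher (2.55%) and 115 lower (0.758%) in GFP against WT, and 258 higher (1.7%) and 607 lower (4%) in GSTA4 against GFP. Libraries did not overlap in 34.6% of genes for GFP and WT and in 42.3% for GSTA4 and GFP. These 3 contrasts share libraries in pairs, so they are not independent of each other.

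The genes called against WT were sorted by what the GFP line did. The class apart from both controls held 2242 genes (14.8% of genes tested and 38.2% of those called), called the same way against WT and against GFP and not called in GFP against WT, with 1144 higher and 1098 lower. A further 491 genes (3.23% of genes tested) were called in the same direction in both lines and further from WT in the GSTA4 line, 247 of them higher. Shared with the GFP line, with no call between the lines, were 1422 genes (9.37% of genes tested and 24.2% of those called), 690 higher and 732 lower. The missed threshold between the lines does not show that these genes changed alike. Another 87 genes (0.573%) moved less far than in the GFP line, and 203 (1.34%) were called in opposite directions in the 2 lines, 74 of them higher in GSTA4. The remaining 1419 genes (9.35%) were called in GSTA4 against WT with no call that placed them by the GFP line, and are termed unresolved. In the shared class the median changes in GSTA4 and GFP were 0.57 and 0.53 for the higher genes and -0.40 and -0.39 for the lower genes, which the definition of the class favours.

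Without WT replicate 1, 5241 genes were called in GSTA4 against WT and the class apart from both controls held 2481. The shared class fell to 900 genes, of which 824 were among the 1422. Without WT replicate 1 and GFP replicate 1 together, a choice made after the data were seen, the counts were 5589, 2228 and 1017.

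**Figure D1:**
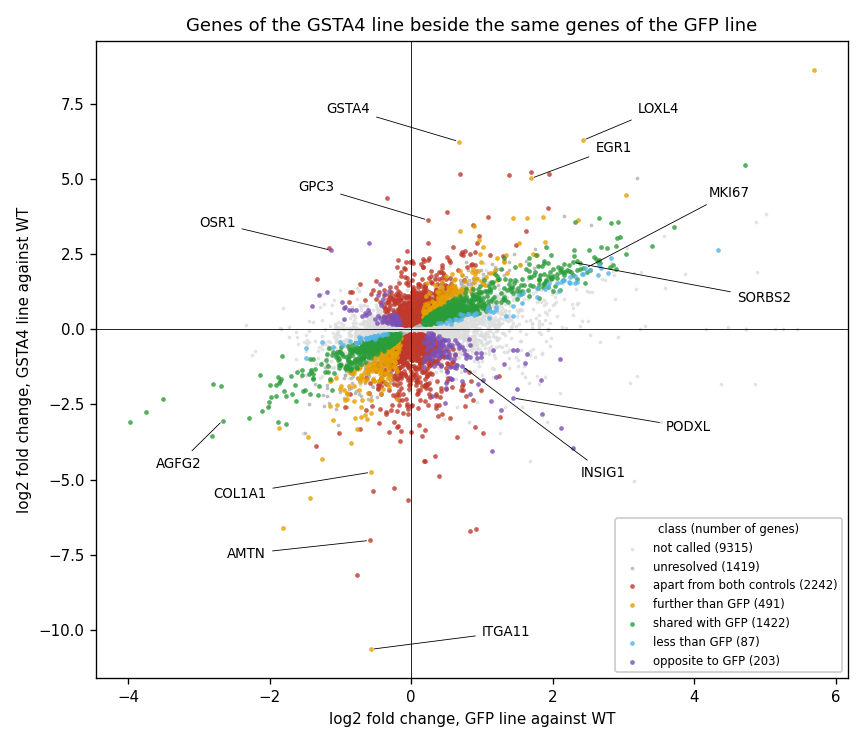
Each point is 1 of 15179 tested genes, with the log2 fold change of the GFP line against WT on the x axis, that of the GSTA4 line against WT on the y axis, and the class as colour. Both axes use the same WT libraries, and ITGA11, COL1A1 and AMTN lie at -10.64, -4.76 and -7.02 on the y axis and at -0.57, -0.57 and -0.59 on the x axis.

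Genes named by class had at least 5 CPM on average and, by the rule, no overlap between the GSTA4 and WT libraries. The largest rises apart from both controls were in GRIA3, GPC3, EDN1, MAOA, ABLIM3 and POLR3G. GPC3, a glypican of the cell surface that binds growth factors, had 53.2, 49.1 and 52.2 CPM in GSTA4, 4.54, 3.82 and 4.13 in WT and 5.02, 4.8 and 4.96 in GFP. The GSTA4 libraries stood above all 6 control libraries, with a log2 fold change of 3.62 (SE 0.118 and adjusted p 3.63e-15) against WT and 3.38 against GFP. MAOA, the mitochondrial monoamine oxidase A, had 106, 99.4 and 106 CPM in GSTA4 and 17.7, 16.3 and 17.3 in WT. GFP had 15.3, 15.3 and 18.6 CPM, which overlapped the WT libraries. The log2 fold changes of MAOA were 2.6 (SE 0.0861 and adjusted p 4.8e-15) against WT and 2.66 against GFP. EDN1, which encodes the peptide endothelin, had 7.82, 8.26 and 11.4 CPM in GSTA4 and 0.498, 1.69 and 1.06 in WT, with no overlap and a log2 fold change of 3.1. GRIA3, a glutamate receptor subunit, was low in WT, at 0.124, 0.22 and 0.472 CPM, and had 10.7, 9.23 and 9.84 CPM in GSTA4. ABLIM3, an actin-binding protein, and POLR3G, a subunit of RNA polymerase III, rose by 2.45 and 2.35 on the log2 scale.

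The largest falls of this class were in AMTN, RGS5, RAB17, MMP2, LTBP2 and TAGLN. AMTN, amelotin, a secreted protein known from enamel, had 1.46, 1.35 and 1.24 CPM in GSTA4 and 66.6, 234 and 232 in WT. WT replicate 1 held less AMTN than the other WT libraries, yet all 3 lay far above GSTA4, and the log2 fold change was -7.02 (SE 0.438 and adjusted p 9.93e-11), or -7.42 without that library. RGS5, a regulator of G protein signalling, had 3.24, 3.15 and 3.78 CPM in GSTA4, 41.9, 84.5 and 87.9 in WT and 81.6, 84.7 and 78.6 in GFP, and its log2 fold change against WT was -4.39 (SE 0.235 and adjusted p 9.57e-12). MMP2, a gelatinase that cuts basement membrane collagen, had 6.35, 3.53 and 5.57 CPM in GSTA4 against 55.1, 74.9 and 75.8 in WT. Its GFP libraries, at 64.1, 58.1 and 62.7 CPM, overlapped the WT range and its log2 fold change between GSTA4 and WT was -3.72 (SE 0.175 and adjusted p 1.17e-12). RAB17, a small GTPase of epithelial membrane traffic, fell by 4.21, and the log2 fold changes of LTBP2, which lies on elastic microfibrils, and of TAGLN, the actin-bundling protein transgelin, were -3.43 and -3.37. Without WT replicate 1, AMTN and LTBP2 moved to the class further than GFP and RAB17 to the class opposite to GFP.

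Genes that the GFP line also moved, but less far, were led by LOXL4, GSTA4 and EGR1 among the rises and ITGA11, COL1A1 and TGM2 among the falls. ITGA11, the alpha subunit of a collagen-binding integrin, had 153, 225 and 214 CPM in WT, 129.8, 120.2 and 148 in GFP and 0.0635, 0 and 0.275 in GSTA4, where the last stand for 1, 0 and 4 reads. The fitted log2 fold change of -10.64 (adjusted p 1.75e-15) depends on the prior count of 0.125 at so few reads. LOXL4, a lysyl oxidase that cross-links collagen and elastin, had 45.7, 37 and 38.9 CPM in GSTA4, 3.35, 2.58 and 2.51 in GFP and 0.747, 0.367 and 0.413 in WT. The order GSTA4 above GFP above WT held for every library, and the log2 fold change against WT was 6.28 (SE 0.212 and adjusted p 6.47e-15). EGR1, a zinc finger factor of the immediate early response, had 56.4, 65 and 78.7 CPM in GSTA4, 5.86, 6.31 and 7.81 in GFP and 1.18, 2.5 and 2.54 in WT. Its groups did not overlap either, with log2 fold changes of 5.01 (SE 0.193 and adjusted p 5.02e-14) in GSTA4 and 1.69 in GFP against WT. TGM2, transglutaminase, fell by 3.78 in GSTA4 and by 0.85 in GFP on the log2 scale.

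**Figure D2:**
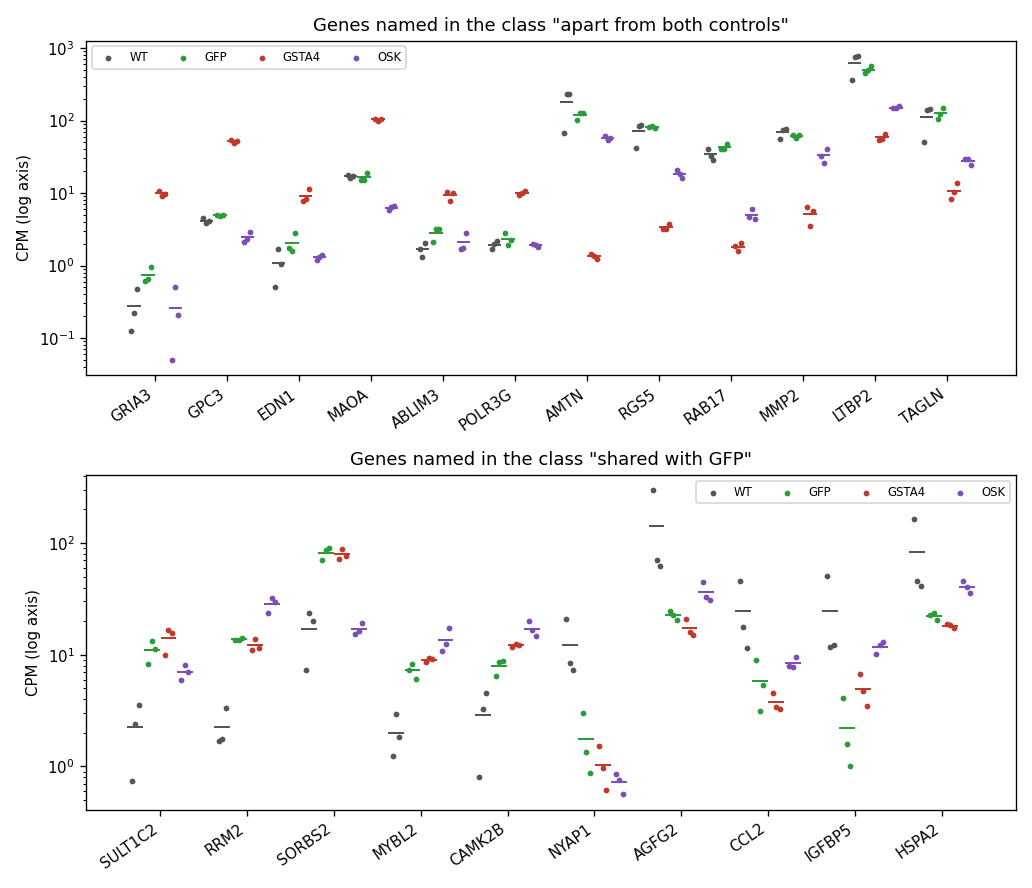
CPM on a log axis in each of the 12 libraries for the genes named in the class apart from both controls (top) and shared with GFP (bottom), with a point per library, a bar at the group mean and a value of 0 drawn at 0.05. In the top panel the 3 GSTA4 libraries lie outside the WT libraries for every gene, which the rule that named these genes required. They also lie outside the GFP libraries, which the definition of the class favours. In the bottom panel WT replicate 1 is the highest WT library for NYAP1, AGFG2, CCL2, IGFBP5 and HSPA2.

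In the class opposite to GFP, the rule named MYOZ2, OSR1 and SCG5 as higher in GSTA4 and ANXA8L1, COL9A2 and PODXL as lower. PODXL, podocalyxin, a sialomucin of the apical membrane, had 148, 186 and 187 CPM in WT, 433, 457 and 524 in GFP and 32.3, 34.1 and 40.2 in GSTA4. The WT libraries lay between the 2 lines, with log2 fold changes of -2.29 (SE 0.1 and adjusted p 3.53e-13) in GSTA4 and 1.44 (SE 0.0906 and adjusted p 2.13e-09) in GFP. OSR1, a zinc finger factor of kidney and heart development, had 7.28, 4.85 and 4.31 CPM in WT, 1.52, 3.23 and 2.72 in GFP and 29.4, 32.9 and 39 in GSTA4, changes of 2.62 and -1.13. MYOZ2, a Z-disc protein, changed by 2.87 in GSTA4 and -0.6 in GFP, and SCG5, a secretory granule chaperone, by 1.48 and -0.44. COL9A2, a collagen chain, changed by -2.45 and 0.48, and without WT replicate 1 its GFP call was lost and it joined the class apart from both controls. ANXA8L1 has near-identical copies whose reads cannot be assigned with certainty, so its changes of -2.69 and 1.27 are uncertain.

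Most tested targets of transforming growth factor beta (TGF-beta) were lower in the GSTA4 line. This secreted factor acts through SMAD proteins to raise matrix and contractile genes, and in RPE it is known for driving a fibroblast-like state. Of 25 tested targets, 17 were lower and 4 higher in GSTA4 against WT, with a median log2 fold change of -1.30, where the median over all genes was 0.01 and 19% of all genes were lower and 19.7% higher. In GFP against WT, 13 were lower and 2 higher (11.2% and 11% of all genes), with a median of -0.27. By class, 13 moved further than in GFP and 7 were apart from both controls (3.23% and 14.8% of all genes). Relative to the mean of the WT group, the median target stood at -1.28, -1.38 and -1.18 in the GSTA4 libraries and at -0.23, -0.28 and -0.24 in the GFP libraries on the log2 scale. The WT libraries themselves were spread over -0.29, 0.13 and 0.14, with WT replicate 1 lowest and close to GFP. Without WT replicate 1 the GSTA4 line had 18 targets lower and 3 higher, and the GFP line 16 lower.

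SMAD7, the inhibitory SMAD that TGF-beta itself induces, had 42.5, 40.4 and 44.4 CPM in GSTA4, 99.6, 93.5 and 101 in GFP and 136, 127 and 130.0 in WT, a log2 fold change of -1.63 (SE 0.0648 and adjusted p 8.43e-14). No GSTA4 library reached the lowest WT or GFP library. JUNB, an AP-1 subunit, had 45.2, 41.3 and 41.5 CPM in GSTA4 and 201, 222 and 223 in WT (log2 fold change -2.34 (SE 0.0749 and adjusted p 3.08e-15)). CCN2, connective tissue growth factor, had 415, 420.5 and 476 CPM in GSTA4 and 1644, 1986 and 2026 in WT (log2 fold change -2.11 (SE 0.0812 and adjusted p 5.02e-14)). Both were lower in every GSTA4 library than in any WT library. Chosen after their values were seen, the inhibitors SMAD6, SKIL, PMEPA1 and BAMBI fell by 0.92, 1.25, 1.3 and 0.63. Against the direction of the list, the ligand TGFB2 rose by 0.97, HMGA2 by 1.26, ACTA2, smooth muscle actin, by 1.46 and LMCD1 by 0.5, a call lost without WT replicate 1 (0.23 and adjusted p 0.0905). The ligand TGFB1, at -0.25 (adjusted p 0.0592), and fibronectin FN1, at -0.13 (adjusted p 0.445), did not pass the test.

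Among 24 genes of fibrillar collagens and their processing, 14 fell and 2 rose in GSTA4 (19% and 19.7% of all genes). In GFP, 9 fell (11.2% of all genes) and 3 rose (11% of all genes), or 1 rose without WT replicate 1. COL1A1, a chain of type I collagen, had 3.24, 3.68 and 6.67 CPM in GSTA4, 83, 84.5 and 80.3 in GFP and 91.6, 133 and 143 in WT. The 3 groups did not overlap, and the log2 fold change was -4.76 (SE 0.202 and adjusted p 2.3e-13) in GSTA4 and -0.57 in GFP. LOX, a collagen cross-linking oxidase, had 28.8, 32.6 and 34.1 CPM in GSTA4 and 94.6, 144 and 143 in WT, with 114, 127 and 131 in GFP (log2 fold change -2.0 (SE 0.139 and adjusted p 5.27e-10) against WT). COL5A1 fell by 1.75, while LOXL4, described above, rose. Of 36 other matrix proteins, 11 rose and 12 fell, a mixed result. The basement membrane chains COL4A1, COL4A2, LAMC1, LAMA5, LAMB3 and COL4A5, noted after their values were seen, were among the rises and TGFBI (-2.59), FBLN2 (-2.7), EFEMP1 (-1.45) and THBS1 (-1.67) among the falls. In GFP, 13 of the 36 rose and 3 fell (11% and 11.2% of all genes). Without WT replicate 1, 10 rose and 16 fell in GSTA4 and 10 rose and 6 fell in GFP. Of 18 matrix proteases and their inhibitors, 8 fell and 3 rose in GSTA4 (5 and 2 in GFP). In GSTA4 CTSK (-1.42) and TIMP3 (-0.81) were among the falls and the urokinase PLAU (2.2, chosen after its value was seen) among the rises. Of 14 integrin subunits, 10 fell and 2 rose in GSTA4 (6 and 1 in GFP), with ITGB5, a vitronectin receptor subunit, at 215, 220.3 and 224 CPM against 503, 549 and 552 in WT (log2 fold change -1.28).

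The sterol pathway was lower in the GSTA4 line and, where called, higher in the GFP line. Its enzymes make cholesterol from acetyl-CoA. Their transcription is driven by SREBF2 when sterols are scarce, and INSIG1 holds this factor back. Of 24 tested genes, 21 fell and none rose in GSTA4 against WT (19% and 19.7% of all genes), with a median log2 fold change of -0.68. In GFP against WT, 11 rose and none fell (11% and 11.2% of all genes), with a median of 0.21. Both counts of none were 0 also at an unadjusted p under 0.05 in edgeR and in DESeq2. By class, 11 were apart from both controls and 10 opposite to GFP (14.8% and 1.34% of all genes). The median gene stood at -0.58, -0.71 and -0.75 in the GSTA4 libraries, 0.15, 0.24 and 0.26 in GFP and 0.07, -0.01 and -0.07 in WT on the log2 scale, relative to the mean of WT. The GSTA4 libraries thus lay below the 6 control libraries, and the same numbers of falls and rises were found without WT replicate 1.

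INSIG1 had 66.3, 70.8 and 67.4 CPM in WT, 98.9, 119 and 118 in GFP and 31.7, 29.4 and 26.1 in GSTA4, log2 fold changes of -1.23 (SE 0.0816 and adjusted p 2.61e-10) in GSTA4 and 0.72 (SE 0.0753 and adjusted p 1.41e-06) in GFP against WT. The 3 groups did not overlap. MSMO1, which removes methyl groups from the sterol ring, had 70.7, 66 and 65.4 CPM in WT, 95.6, 103 and 95.5 in GFP and 35.8, 35 and 32.1 in GSTA4. Its log2 fold changes were -0.97 (SE 0.0717 and adjusted p 1.25e-09) in GSTA4 and 0.54 (SE 0.0674 and adjusted p 1.11e-05) in GFP, again with no overlap between groups. The genes that did not pass the test in GSTA4 were MVK (-0.15), FDPS (-0.02) and PMVK (0.13). SREBF2 itself fell by 0.29 (adjusted p 0.000704).

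Promoters of INSIG1 and MSMO1 are shown because these genes moved in opposite directions in the 2 lines. They come from RefSeq on GRCh38.p14, from 250 bases before to 50 after the start of the gene, with CCAAT on either strand in capitals.
INSIG1 promoter, chr7:155297628-155297927, + strand: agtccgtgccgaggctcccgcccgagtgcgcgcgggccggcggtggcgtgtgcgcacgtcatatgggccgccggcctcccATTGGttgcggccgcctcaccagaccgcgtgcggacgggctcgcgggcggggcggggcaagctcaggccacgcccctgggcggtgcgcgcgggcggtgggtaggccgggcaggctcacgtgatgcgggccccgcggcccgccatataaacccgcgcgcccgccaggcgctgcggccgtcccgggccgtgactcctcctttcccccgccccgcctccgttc
MSMO1 promoter, chr4:165327419-165327718, + strand: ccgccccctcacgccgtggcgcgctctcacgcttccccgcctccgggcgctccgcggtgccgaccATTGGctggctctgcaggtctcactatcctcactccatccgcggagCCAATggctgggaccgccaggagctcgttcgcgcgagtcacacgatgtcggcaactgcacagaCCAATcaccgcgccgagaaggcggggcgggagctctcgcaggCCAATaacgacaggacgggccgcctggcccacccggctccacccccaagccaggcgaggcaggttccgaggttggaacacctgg
CCAAT or its reverse complement ATTGG was found in 15 of the 18 sterol genes that had a promoter in the table (83.3%) and in 36.5% of the 11275 promoters of tested genes. The sterol regulatory element, searched as TCACNCCAC on both strands, was found in 1 of 18, that of SREBF2, and in 1.18% of the tested genes' promoters. No match says only that these letters are not in this window.

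Fatty acid genes gave a mixed picture with falls in the desaturases. Of 20 tested genes of fatty acid synthesis and desaturation, 11 fell and 4 rose in GSTA4 (19% and 19.7% of all genes). In GFP, 3 fell and 8 rose (11.2% and 11% of all genes). SCD, the desaturase that makes oleate, had 558, 554 and 529 CPM in WT, 696, 736 and 766 in GFP and 254, 233 and 215 in GSTA4. All GSTA4 libraries were below all controls, with a log2 fold change of -1.22 (SE 0.0649 and adjusted p 8.35e-12) against WT, while GFP against WT gave 0.42 (adjusted p 8.5e-05). FADS1 and FADS2, desaturases of polyunsaturated fatty acids, changed by -1.07 and -0.9 in GSTA4 and by 0.19 and 0.5 in GFP, where the FADS1 call was lost without GFP replicate 1 (adjusted p 0.0652). SREBF1, the regulator of this pathway, rose by 0.69 (adjusted p 4.9e-08), opposite to its target group. Of 10 genes of cholesterol efflux, 4 rose and 3 fell in GSTA4 (3 and 1 in GFP). The exporter ABCA1 was at 0.86 in GSTA4 and PLTP, a phospholipid transfer protein, at 0.83.

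**Figure D3:**
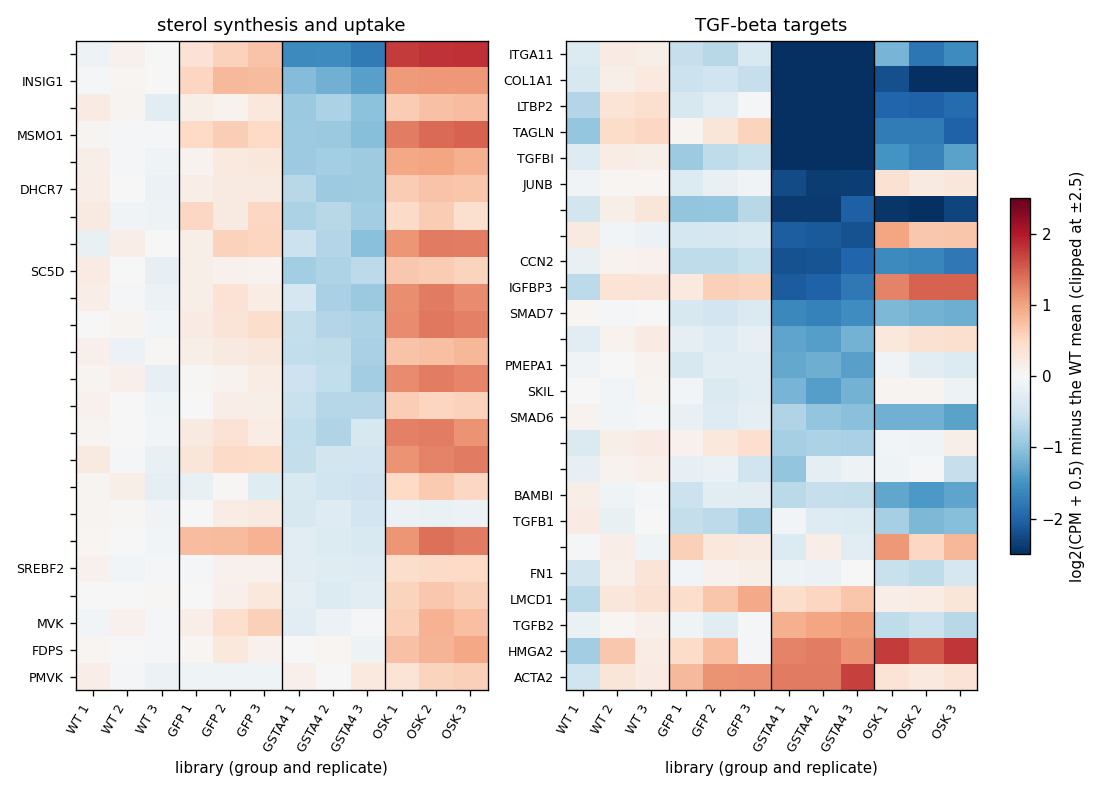
Colour gives log2(CPM + 0.5) of each tested gene minus its mean over WT, clipped at 2.5 in size, with a row per gene (only genes described in the text are labelled) of the sterol list (left) and the TGF-beta list (right) and a column per library of the 4 groups. INSIG1 and MSMO1 are low in the 3 GSTA4 libraries and high in the 3 GFP and the 3 OSK libraries, and COL1A1 and TGFBI are far lower in the GSTA4 than in the GFP libraries.

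Most genes of cytosolic ribosomal proteins were higher in the GSTA4 line. Of 78 cytosolic ribosomal protein genes, 68 rose and none fell (19.7% and 19% of all genes), with a median log2 fold change of 0.40. The GFP line had 27 higher and none lower (11% and 11.2% of all genes), with a median of 0.17. At an unadjusted p under 0.05 in edgeR, 0 were lower in GSTA4 and 1 in GFP, and DESeq2 called 0 lower in either. By class, 32 were apart from both controls, 14 further than GFP, 13 shared and 9 unresolved. Over all genes tested these classes held 14.8%, 3.23%, 9.37% and 9.35%. The median gene stood at 0.36, 0.44 and 0.41 in the GSTA4 libraries and at -0.01, 0.24 and 0.24 in GFP, where GFP replicate 1 lay lowest. The classes moved when this library or WT replicate 1 was left out. Without GFP replicate 1, the number higher in GFP was 55, and 7 genes were apart from both controls, 22 further than GFP and 32 shared. Without WT replicate 1, 16 were higher in GFP, with 45 apart from both controls and 4 shared. RPL29, a large subunit protein, had 921, 965 and 968 CPM in GSTA4 and 505, 601 and 561 in WT (log2 fold change 0.78 (SE 0.0737 and adjusted p 5.63e-08)), and RPL12, RPL10A and RPL35 rose by 0.79, 0.68 and 0.68. Many pseudogenes resemble ribosomal protein genes, so reads may be split among copies.

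Mitochondrial energy genes that passed the test were mostly higher, by small amounts. Of 77 nuclear-encoded respiratory chain genes, 33 rose and 2 fell in GSTA4 against WT (19.7% and 19% of all genes), with a median of 0.18. In GFP 3 rose and 5 fell (11% and 11.2% of all genes), with a median of 0.00, and 6 rose without GFP replicate 1. Among the 13 mitochondrially encoded mRNAs, 9 rose and none fell in GSTA4 (19.7% and 19% of all genes). In GFP, 2 rose and 1 fell (11% and 11.2% of all genes). No mRNA of the 13 fell in GSTA4 at an unadjusted p under 0.05 in edgeR or in DESeq2. ATP5MC2, which is part of the proton ring of ATP synthase, had 142, 156 and 151 CPM in GSTA4 and 89, 93.2 and 98.2 in WT. These libraries did not overlap, with a log2 fold change of 0.68 (SE 0.0693 and adjusted p 1.45e-07). UQCRFS1, the iron-sulfur subunit of complex III, rose by 0.65, ATP5F1A by 0.38 and ATP5PB by 0.37. MT-ND1, a complex I subunit, rose by 0.59 and MT-CO3, of complex IV, by 0.48. None of these 6 genes passed edgeR's test for a change of at least 1.5-fold.

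Most tested chaperones and other genes of endoplasmic reticulum stress were lower in GSTA4 and not called in GFP. They are induced by the unfolded protein response, which enlarges folding capacity. Of 23 tested genes, 14 fell and 2 rose in GSTA4 (19% and 19.7% of all genes), with a median of -0.30. In GFP, 0 fell and 2 rose (11.2% and 11% of all genes), with a median of -0.05. By class, 14 were apart from both controls (14.8% of all genes). The 0 falls in GFP were 0 also at an unadjusted p under 0.05 in edgeR and in DESeq2. HYOU1, an oxygen-regulated chaperone, had 182, 174 and 175 CPM in GSTA4, 267, 266 and 309.9 in GFP and 299.5, 306 and 307 in WT. The GSTA4 libraries were below all controls, with a log2 fold change of -0.78 (SE 0.0617 and adjusted p 3.83e-09). DNAJB9 (-0.73), DNAJC3 (-0.51) and the ubiquitin ligase SYVN1 (-0.49) fell too, and so did the main chaperone HSPA5 (-0.4, named after its value was seen). DDIT3 and CREB3L2 were the genes that rose, by 0.56 and 0.29, the latter not called without WT replicate 1 (0.2 and adjusted p 0.0525). Targets of ATF4, the factor of amino acid starvation, were called at shares near those of all genes (19.7% higher and 19% lower), with 5 of 29 higher and 7 lower. SLC3A2, the heavy chain of amino acid exchangers, was at -1.14 and TRIB3 at 1.13.

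More genes of antigen presentation and interferon response were higher than lower. Of 34 tested interferon response genes, 20 rose and 1 fell in GSTA4 (19.7% and 19% of all genes), with a median of 0.63. In GFP, 10 rose and 1 fell (11% and 11.2% of all genes), with a median of 0.23. B2M, the light chain of class I major histocompatibility complexes, had 473, 492 and 495 CPM in GSTA4, 239, 285 and 260.0 in GFP and 217, 185 and 200.3 in WT. The groups were ordered WT, GFP and GSTA4 without overlap, and the log2 fold change was 1.28 (SE 0.0809 and adjusted p 1.26e-10). HLA-B, with close relatives that can share reads, rose by 0.83, and IFITM3, a membrane protein that blocks virus entry, by 0.88. ISG15, at 0.27 (adjusted p 0.468), did not pass. The lymphocyte and monocyte markers PTPRC, CD14, CD3E and TYROBP were at or under the floor in WT and GSTA4. CSF1R, the receptor of macrophage colony stimulating factor and the one immune marker tested, had 2.86, 10.6 and 9.85 CPM in WT, 14, 18.2 and 18.8 in GFP and 0.445, 0.45 and 0.482 in GSTA4. It was thus lowest in GSTA4, and its log2 fold change was -4.05, or -4.45 without WT replicate 1.

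Enzymes of aldehyde clearance moved in both directions. Of 20 tested genes of aldehyde clearance, 7 rose, the ORF gene GSTA4 itself among them, and 6 fell (19.7% and 19% of all genes). Their median was -0.08. In GFP, 4 rose and 5 fell (11% and 11.2% of all genes). ALDH3B1, an aldehyde dehydrogenase that acts on medium and long chain aldehydes, had 289, 327 and 307 CPM in GSTA4 and 129.6, 159 and 161 in WT (log2 fold change 1.04 (SE 0.0948 and adjusted p 3.03e-08)). ALDH9A1 rose by 0.6 and ALDH1A3, which makes retinoic acid, fell by 0.53. Named after their values were seen, AKR1B1, aldose reductase, and AKR1C3 fell by 1.15 and 1.17 in GSTA4 and by 1.28 and 0.76 in GFP. WT replicate 1 was high in AKR1B1, and without it this gene fell by 0.49 in GSTA4 and by 0.63 in GFP.

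Genes of glutathione synthesis and use showed 11 rises and 5 falls among 30 in GSTA4, where 19.7% of all genes rose and 19% fell. In GFP, 4 rose and 2 fell (11% and 11.2% of all genes). GPX1, a peroxidase that uses glutathione, had 189.7, 200.0 and 187 CPM in GSTA4, 72.5, 95.3 and 87.6 in GFP and 86.2, 78.4 and 84.6 in WT, and GPX3, the secreted form, had 383, 366 and 377, 1093, 1131 and 1134 and 1474, 1491 and 1481. The first was above all controls and the second below them, with log2 fold changes of 1.21 (SE 0.0827 and adjusted p 3.98e-10) and -1.98 (SE 0.0737 and adjusted p 3.4e-14) against WT. GSTM3 fell by 1.01. GCLC and GCLM, subunits of the enzyme that limits glutathione synthesis, fell by 0.38 and 0.5, the latter not called without WT replicate 1 (-0.34 and adjusted p 0.0887), and GSS, which completes it, was at 0.01 (adjusted p 0.934). Of 17 genes of superoxide and peroxide removal, 10 rose and 2 fell in GSTA4 (19.7% and 19% of all genes), with a median of 0.27. In GFP, 0 rose and 3 fell (11% and 11.2% of all genes), with a median of -0.04. By class, 10 were apart from both controls (14.8% of all genes). At an unadjusted p under 0.05 in edgeR, 1 was higher in GFP, and DESeq2 called 0. SESN3, a sestrin, rose by 1.23, CAT, catalase, by 0.51 and PRDX3, the mitochondrial peroxiredoxin, by 0.37, whereas PRDX1 fell by 0.4.

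Targets of NRF2, the factor that oxidants and reactive aldehydes activate, were more often lower than higher. Of 24, 9 fell and 3 rose in GSTA4 (19% and 19.7% of all genes), with a median of -0.12. In GFP 6 fell and 2 rose (11.2% and 11% of all genes), with a median of -0.04, and neither rise passed the test without WT replicate 1. NQO1, a quinone reductase much used as a readout of NRF2, had 8.32, 8.63 and 9.22 CPM in GSTA4, 16.4, 14.5 and 16.8 in GFP and 15.7, 13.9 and 16.2 in WT. The GSTA4 libraries were the lowest, with a log2 fold change of -0.81 (SE 0.119 and adjusted p 1.61e-05). EPHX1 fell by 0.64, and ABCC3, an exporter of conjugates, changed by -1.58. In GFP these genes changed by -0.33 and -1.89. HMOX1 was at 0.04 (adjusted p 0.93). Metallothioneins bind zinc and are induced through MTF1. Of 6 tested genes of this group, 4 fell in each line, the metallothioneins MT2A, MT1X and MT1E and the regulator MTF1. Over all genes 19% fell in GSTA4 and 11.2% in GFP. MT2A was at -1.88 in GSTA4 and -0.88 in GFP and MT1X at -3.01 and -1.1 on the log2 scale.

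Targets of p53 were more often higher in GSTA4, with 17 of 34 higher and 5 lower (19.7% and 19% of all genes) and a median of 0.23. GFP had 5 higher and 7 lower (11% and 11.2% of all genes), with a median of -0.09, and 3 higher without WT replicate 1. FAS, the death receptor, had 22, 21.8 and 25.7 CPM in GSTA4, 8.82, 10.7 and 9.37 in GFP and 6.1, 7.49 and 6.96 in WT, without overlap (log2 fold change 1.76 (SE 0.129 and adjusted p 1.18e-09)). FDXR, a mitochondrial reductase, rose by 1.32 and cyclin CCNG1 by 0.74, whereas ABHD4 fell by 0.95. CDKN1A, the p21 inhibitor, rose by 0.26 (adjusted p 0.0131), a call lost without WT replicate 1 (adjusted p 0.0509). Among other inhibitors of cyclin-dependent kinases, CDKN2B had 57.9, 55.5 and 62.7 CPM in GSTA4 and 256, 331 and 323 in WT, a log2 fold change of -2.37 (SE 0.0962 and adjusted p 1.17e-13). CDKN2C rose by 1.76 and CDKN2A by 0.91, and the kinase CDK6 by 0.81.

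Genes of RPE identity were lower on balance in GSTA4 and higher in GFP. Of 33, 15 fell and 7 rose in GSTA4 (19% and 19.7% of all genes), with a median of -0.24. In GFP, 4 fell and 14 rose (11.2% and 11% of all genes), with a median of 0.25. The summed level of the 13 RPE markers, KRT8, KRT18, EZR and TIMP3 among them, was 4979 to 5683 CPM in WT, 4796 to 5326 in GFP and 3299.6 to 3400.3 in GSTA4. In this sum GFP overlapped WT and was not higher. VEGFA, which RPE secretes toward the choroid, had 98.1, 95.7 and 97.4 CPM in GSTA4 and 237, 289 and 278 in WT (log2 fold change -1.47 (SE 0.0889 and adjusted p 6.33e-11)). EFEMP1, a matrix protein of Bruch's membrane, fell by 1.45. LRAT, the acyltransferase of the visual cycle, had 12.7, 15.9 and 14.4 CPM in GSTA4, 3.35, 3.15 and 5.16 in GFP and 1.06, 0.734 and 1.36 in WT and rose by 3.74. Named after their values were seen, the pigment genes PMEL, TYRP1 and TYR changed by -1.27, -1.35 and -0.83 in GSTA4 and by 0.54, 0.76 and 1.64 in GFP, and SERPINF1, which encodes PEDF, rose by 1.39 and 1.42. In GFP, PMEL was at 0.35 without WT replicate 1. WT replicate 1 held 10.1 CPM of TYR and the other WT libraries 25.3 and 28.3.

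Of 23 epithelial junction and keratin genes, 11 fell and 3 rose in GSTA4 (19% and 19.7% of all genes), with a median of -0.46. In GFP, 5 fell and 2 rose (11.2% and 11% of all genes), with a median of 0.04. F11R, a tight junction adhesion molecule, had 33.4, 42.8 and 41.5 CPM in GSTA4, 83.2, 89.6 and 87 in GFP and 81.7, 91.9 and 95.5 in WT (log2 fold change -1.2 (SE 0.0835 and adjusted p 5.39e-10)). The GSTA4 libraries were the lowest. KRT8 and KRT7, simple epithelial keratins, fell by 0.88 and 0.93, and JUP, plakoglobin, by 0.68. Of 6 tested factors of the epithelial to mesenchymal transition, 3 rose, namely TWIST1 (0.48), ZEB1 (0.32) and ZEB2 (0.31), and 2 fell, TCF4 (-0.99) and SNAI3 (-1.3). The calls of SNAI3 and ZEB1 were lost without WT replicate 1 (log2 fold changes -1.07 and 0.25, adjusted p 0.145 and 0.122).

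Genes of glycolysis and the hypoxia response that passed the test were mostly lower in both lines. Of 41, 23 fell and 2 rose in GSTA4 (19% and 19.7% of all genes), with a median of -0.29 and 4 rises without GFP replicate 1. In GFP, 19 fell and 1 rose (11.2% and 11% of all genes), with a median of -0.18. LDHA, which turns pyruvate into lactate, had 632, 397 and 398 CPM in WT, 251, 259 and 252 in GFP and 104, 111 and 109 in GSTA4. The groups did not overlap, WT replicate 1 was the highest, and the log2 fold changes were -2.14 (SE 0.129 and adjusted p 6.03e-11) in GSTA4 and -0.91 (SE 0.123 and adjusted p 2.97e-05) in GFP. SLC2A1, the main glucose transporter of RPE, changed by -1.44 and -0.34, and the enolase ENO2 by -0.84 and -0.54.

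Mitosis genes rose in both lines. Proteins of mitosis assemble the spindle and separate the chromosomes, and MKI67 coats mitotic chromosomes and is a common marker of cycling cells. Of 37 mitosis genes, 36 rose and none fell in GSTA4 (19.7% and 19% of all genes), with a median of 1.54. In GFP, 36 rose and none fell (11% and 11.2% of all genes), with a median of 1.94. None fell in either line at an unadjusted p under 0.05 in edgeR, or in DESeq2. By class, 22 were shared, 13 moved less than in GFP and 1, BUB1B, moved further. Over all genes tested these classes held 9.37%, 0.573% and 3.23%. Without GFP replicate 1, 23 were shared, 11 moved less and 0 moved further, so the BUB1B exception leaned on that library. PRC1, at 1.03 (adjusted p 0.128), did not pass. The median gene stood at 1.26, 1.23 and 1.46 in the GSTA4 libraries and 1.69, 1.68 and 1.73 in GFP, so that all GSTA4 libraries were below all GFP libraries and both were above WT. MKI67 had 7.53, 10.1 and 13.7 CPM in WT, 56.6, 57.6 and 59.2 in GFP and 38.2, 45.1 and 45.1 in GSTA4, log2 fold changes of 2.03 (SE 0.133 and adjusted p 2.12e-10) in GSTA4 and 2.46 (SE 0.131 and adjusted p 2.55e-10) in GFP against WT and of -0.44 (SE 0.114 and adjusted p 0.0063) between the lines. TOP2A, the topoisomerase that untangles DNA, rose by 1.84, the spindle factor TPX2 by 1.54 and the checkpoint kinase BUB1 by 1.97. Of 40 genes of DNA replication, 23 rose and 1 fell in GSTA4 (19.7% and 19% of all genes). In GFP also 23 rose and 1 fell (11% and 11.2% of all genes). RRM2, a subunit of ribonucleotide reductase, was at 2.39 in GSTA4 and 2.58 in GFP. In the same order TK1 was at 1.71 and 1.97, MCM5 at 1.02 and 0.92 and CDC45 at 2.34 and 2.61.

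Promoters of MKI67 and BUB1 are shown because both genes rose in both lines and less far in GSTA4. They are RefSeq sequences on GRCh38.p14, with CCAAT and TTTGAA, the core of the cell cycle genes homology region, on either strand in capitals.
MKI67 promoter, chr10:128126374-128126673, - strand: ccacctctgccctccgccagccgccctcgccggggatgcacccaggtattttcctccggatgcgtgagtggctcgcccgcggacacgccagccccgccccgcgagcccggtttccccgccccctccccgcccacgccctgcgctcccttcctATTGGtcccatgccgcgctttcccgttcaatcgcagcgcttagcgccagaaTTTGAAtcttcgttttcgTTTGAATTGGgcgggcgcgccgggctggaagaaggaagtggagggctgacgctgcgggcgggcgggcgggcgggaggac
BUB1 promoter, chr2:110678014-110678313, - strand: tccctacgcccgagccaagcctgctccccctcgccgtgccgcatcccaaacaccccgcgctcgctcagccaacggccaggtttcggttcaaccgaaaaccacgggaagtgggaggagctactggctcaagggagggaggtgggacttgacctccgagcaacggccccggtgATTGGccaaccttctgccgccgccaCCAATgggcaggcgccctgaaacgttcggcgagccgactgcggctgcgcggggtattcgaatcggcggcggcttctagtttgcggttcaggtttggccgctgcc
TTTGAA was found in 23 of 32 mitosis promoters (71.9%) and in 9.66% of the promoters of tested genes, and CCAAT in 25 of 32 (78.1%). In MKI67 a TTTGAA overlaps an ATTGG, and in BUB1 only CCAAT or its reverse complement was found in this window. The same search for TGANTCA, the AP-1 site, matched 0 of 21 promoters of TGF-beta targets and 4.51% of those of tested genes.

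Beside RRM2 above, the largest rises shared with GFP were in SULT1C2, SORBS2, MYBL2 and CAMK2B. SULT1C2, a sulfotransferase, had 0.747, 2.42 and 3.54 CPM in WT, 8.29, 13.4 and 11.3 in GFP and 9.98, 16.6 and 15.8 in GSTA4. SORBS2, a cytoskeletal adaptor, had 7.28, 23.8 and 20.2 CPM in WT, 70.9, 86.3 and 89.8 in GFP and 72.8, 88.4 and 76.8 in GSTA4. In both genes the 2 lines overlapped and WT was lower, with log2 fold changes in GSTA4 of 2.64 (SE 0.309 and adjusted p 9.51e-07) and 2.22 (SE 0.22 and adjusted p 9.68e-08). MYBL2, an activator of cell cycle genes, and CAMK2B, a calmodulin kinase subunit, rose by 2.19 and 2.07 in GSTA4 and 1.87 and 1.46 in GFP.

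The largest shared falls were in NYAP1, AGFG2, CCL2, IGFBP5 and HSPA2, and several leaned on WT replicate 1. AGFG2 had 297, 70.3 and 62.7 CPM in WT, 24.9, 22.9 and 20.3 in GFP and 20.9, 16.1 and 15.1 in GSTA4. HSPA2, a heat shock protein, had 164, 46 and 40.9 CPM in WT, 22.7, 23.6 and 20.6 in GFP and 18.7, 18.4 and 17.3 in GSTA4. In both, WT replicate 1 was by far the highest library, though the other WT libraries also lay above both lines. Without it the log2 fold changes in GSTA4 went from -3.04 to -1.93 for AGFG2 and from -2.21 to -1.26 for HSPA2, and both moved to the class further than GFP. CCL2, a monocyte chemokine, went from -2.72 to -1.94, NYAP1 from -3.54 to -2.90, and IGFBP5, which binds insulin-like growth factors, from -2.31 to -1.26, where it was less far than in GFP (-2.45). Of the 732 shared falls, 442 stayed in the class without WT replicate 1, and of the 690 shared rises, 382. In the class less than GFP, COL12A1, a fibril-associated collagen, fell by 0.96 in GSTA4 and 1.49 in GFP, ISYNA1, inositol synthase, by 0.58 and 1.11, KCTD17 by 0.52 and 0.97, and IQGAP3 rose by 2.37 and 2.82.

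Other signalling groups held calls in both directions in GSTA4, where 19% of all genes were lower and 19.7% higher. In GFP, 11.2% of all genes were lower and 11% higher. Of 14 genes of the insulin-like growth factor axis, 8 fell and 2 rose in GSTA4, while 5 fell and 0 rose in GFP. At an unadjusted p under 0.05 in edgeR, 2 were higher in GFP. IGFBP3 had 12.5, 13.1 and 15.5 CPM in GSTA4 and 34.3, 69 and 68.1 in WT (log2 fold change -2.06 (SE 0.193 and adjusted p 4.54e-08)). Of 17 BMP and ID genes, 8 fell and 2 rose, with the ligand BMP6 at -2.26 and ID1 at -1.3. In GFP 3 fell and 2 rose, or 4 and 0 without WT replicate 1. Of 25 WNT pathway genes, 8 fell and 3 rose, which is 44% called beside 38.6% of all genes. In GFP 4 fell and 6 rose. The secreted inhibitor SFRP1 was at -1.66 in GSTA4 and the receptors FZD8, FZD7 and FZD2 at -1.6, -1.24 and -0.93. Of 25 YAP targets, 12 rose and 5 fell (6 and 5 in GFP, or 2 and 7 there without WT replicate 1). The AP-1 and immediate early genes split into 7 rises and 8 falls among 25 (1 and 10 in GFP). FOSL1 was at 2.08 and IER3 at -1.67 in GSTA4. Of 20 actomyosin genes, 6 fell and 3 rose, with caldesmon CALD1 at -1.48, and without WT replicate 1 the number of falls was 13. In GFP 0 fell and 5 rose, or 4 and 3 without WT replicate 1. Of 31 lysosome genes, 12 rose and 9 fell (10 and 4 in GFP), and 10 were shared with GFP (9.37% of all genes). The glycosidases HEXA (0.56) and GUSB (0.62) were among the rises in GSTA4. Of 14 complement genes, 6 rose and 3 fell (6 and 1 in GFP). C3 was at 1.37 in GSTA4 and CD55 and CD59, which shield cells from complement, at -0.85 and -0.57. Of 14 secreted inflammatory and NF-kB genes, 5 rose and 4 fell (3 and 4 in GFP, or 1 and 3 there without WT replicate 1).

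**Figure D4:**
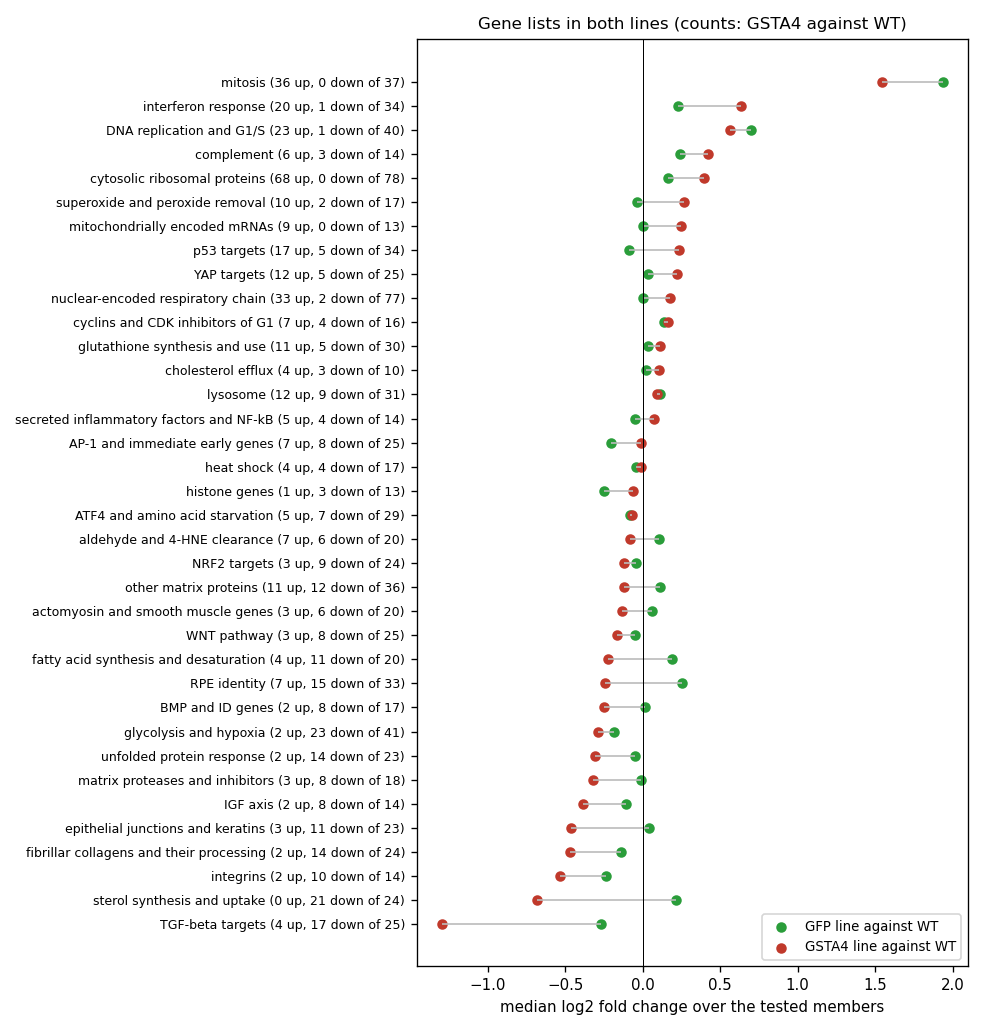
For each list with at least 10 tested genes, the median log2 fold change over its tested genes in the GSTA4 line (red) and the GFP line (green) against WT, with the numbers called up and down in GSTA4 after the name. The 2 medians lie on opposite sides of zero for the sterol and the RPE identity lists and on the same side for mitosis and for the TGF-beta targets. Some genes belong to several lists.

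Some chromosome windows had medians away from zero. Tested genes with a RefSeq position on GRCh38.p14, of which 14236 lay in 260 windows of 10 Mb with at least 20 genes each, were described by the median log2 fold change of a window, which had a 5th to 95th percentile range of -0.12 to 0.19 in GSTA4 against WT. Counts of called genes per window stand beside 19.7% higher and 19% lower over all genes tested. The windows of chromosome 15 from 30 to 40 Mb and from 40 to 50 Mb had medians of 0.23 and 0.27, with 16 of 41 and 34 of 97 genes higher and 4 lower in each. In GFP against WT their medians were -0.09 and -0.05. For the latter window, library medians relative to WT were 0.17, 0.27 and 0.25 in GSTA4, -0.04, -0.07 and -0.03 in GFP and -0.13, -0.11 and -0.13 in OSK, so the GSTA4 libraries lay above all others. B2M and SCG5, described above, lie in these windows, with IVD, an acyl-CoA dehydrogenase of leucine breakdown (0.55), and TP53BP1, a DNA repair protein (0.45). On chromosome 11, the windows from 70 to 80 Mb and from 120 to 130 Mb had medians of -0.16 and -0.28, with 30 of 80 and 21 of 54 genes lower. Library medians of the former were -0.14, -0.15 and -0.19 in GSTA4, 0.10, 0.06 and 0.07 in GFP and -0.13, -0.14 and -0.14 in OSK, so that OSK lay below WT as well. The sterol enzymes DHCR7 (-0.84) and SC5D (-0.78) lie in these windows of chromosome 11. In all, 7 windows lay beyond the 5th or 95th percentile on the same side both against WT and against GFP. The other 3 were chromosome X from 20 to 30 Mb, with the highest median of the 260, 0.38 (12 of 22 genes higher), chromosome X from 0 to 10 Mb, with 0.27 (10 of 24), and chromosome 7 from 20 to 30 Mb, with 0.20 (13 of 38). Their medians in GFP against WT were 0.19, 0.02 and 0.09.

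**Figure D5:**
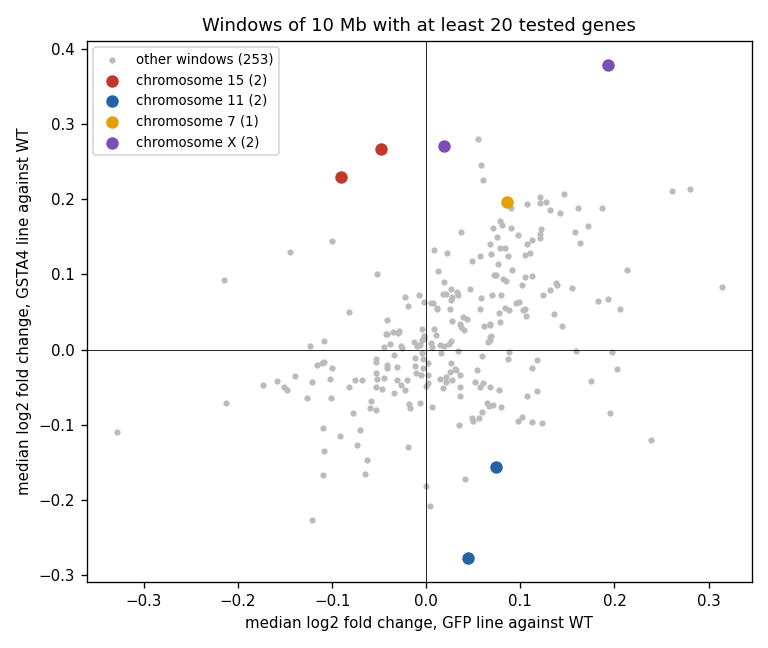
Each point is 1 of 260 windows of 10 Mb, with the median log2 fold change over its tested genes in the GFP line against WT on the x axis and in the GSTA4 line against WT on the y axis. Coloured points are the 7 windows beyond the 5th or 95th percentile both against WT and against GFP, among them 2 of chromosome 15 with medians of 0.23 and 0.27 on the y axis and 2 of chromosome 11 with -0.16 and -0.28.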

How the data were processed

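Poly(A) RNA of 12 ARPE-19 libraries in 4 groups of 3 was sequenced with a NEBNext Ultra II kit, per the labels' protocols. The authors deposited read counts per gene, made with STAR 2.7.1a and featureCounts 1.6.2 per the submitters' processing notes. Those notes name GRCh38, and the annotation release and strand setting are not given in the sources used here. Overlapping genes may therefore share reads. Lines with no symbol (20014 of 60605, 0.485% to 0.822% of reads) were left out. Named lines that share a symbol (1272) were kept apart.

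Counts were tested with edgeR 4.0.16 (limma 3.58.1, R 4.3.3) with TMM scaling, the filterByExpr filter and the quasi-likelihood test. One fit of all 12 libraries, with group means alone, gave 3 contrasts, two-sided p-values and Benjamini-Hochberg adjustment over 15179 genes per contrast. SE is the log2 fold change over the root of F. A floor of 3 reads corresponds to 0.177 to 0.225 CPM in the 6 libraries compared and covers counting error only. The biological coefficient of variation was 7.91%. Library medians of a list used log2(CPM + 0.5).

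Named genes were, per class, the largest rises and falls among protein-coding genes called against WT with at least 5 CPM and no overlap between groups, and the 4 members of a described list with the lowest adjusted p. Some genes that this rule names are not reported here. Members, lists and rules were chosen with earlier results of these data known, so list counts and medians are descriptions. Lists share members, so genes such as ITGA11, CCN2, JUNB, ITGB5, EFEMP1 and VEGFA count in several lists. Alternatives were other scaling, filters, thresholds, DESeq2 1.42.0, a replicate block, fewer groups and each WT, GFP and GSTA4 library left out.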

Additional observations from a re-analysis of the deposited data

How the results depend on the processing

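Under other scaling, filters and DESeq2 the counts of called genes and of each class stayed within 1.5 times, and the share of calls higher in GSTA4 against WT, 50.9%, ranged from 49.1% to 50.5%, so that neither direction led throughout. A test for a change of at least 1.5-fold cut them most, to 1013 genes in GSTA4 against WT, 230 in GFP against WT and 629 in GSTA4 against GFP. Its classes held 411 genes apart from both controls, 16 further than GFP, 141 shared, 0 less than GFP, 7 opposite and 438 unresolved. At an adjusted p of 0.01 the counts were 1743 in GFP against WT, 2793 in GSTA4 against GFP, 214 further, 785 shared, 23 less and 83 opposite. Leaving out each WT, GFP and GSTA4 library in turn gave 4742 to 6020 genes in GSTA4 against WT, 2267 to 3297 in GFP against WT and 3459 to 5064 in GSTA4 against GFP. The classes then ranged over 1783 to 2481 apart, 286 to 472 further, 900 to 1435 shared, 40 to 95 less, 138 to 190 opposite and 1112 to 2060 unresolved. The lowest shared count was that without WT replicate 1, and the cause was not tested. With the replicate number as a block, 6104 genes were called in GSTA4 against WT and 134 moved less than in GFP, a class of 103 without WT replicate 1 and GFP replicate 1. Same-numbered libraries of WT, GFP and GSTA4 had deviations correlated at -0.03 to 0.18. The highest values were those of WT replicate 1 with GFP replicate 1 (0.18) and GSTA4 replicate 1 (0.16). With the other GFP and GSTA4 libraries, WT replicate 1 had -0.06 to -0.10. Deviations from a group mean cancel within the group, which favours such opposite signs. The main fit did not pair libraries by number, and whether same-numbered libraries share an effect was not tested. Of 3519 alternative values for 176 named genes, 3447 kept their call in GSTA4 against WT, 72 of 55 genes lost it and 0 reversed. These genes were named for large changes or low adjusted p in that contrast, which favours kept calls. The count does not cover classes, which several named genes changed without WT replicate 1. Depth limits genes near the floor of 3 reads, such as ITGA11 in GSTA4.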
